A study of Mus musculus with 11 samples.

Results

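The genes described here build amino acids and purines. They are Phgdh, Psat1 and Shmt2 of the serine and glycine route, Asns, which makes asparagine, Ppat, Gart and Paics of de novo purine synthesis, and Atf4, a transcription factor of the amino acid response. All 8 were found by symbol among the 24898 genes listed in 4 tables of single-cell RNA sequencing, 1 table per age, made on the cochlear duct floor of mice. The mice were CD1 wildtype animals at embryonic day 14 (E14, 2 libraries), embryonic day 16 (E16, 3 libraries), postnatal day 1 (P1, 4 libraries) and postnatal day 7 (P7, 2 libraries, numbered 4 and 5). No animal carried a transgene or received a treatment. Each library was a separate collection in which cochleae of several animals of either sex were pooled, so a replicate is a pool and not an animal. Age cannot be told apart from whatever else differed between the collections of different ages.

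Cells were placed in classes by marker genes, none of them 1 of the 8 genes. A cell was called a hair cell (HC), the mechanosensory cell of the organ of Corti, by its mean over 14 markers such as Pou4f3 and Myo7a. A supporting cell (SC), a class that takes in prosensory cells at E14 and E16, was called by 15 markers such as Sox2, Prox1 and Hes5. A cell of Kölliker's organ (KO), the transient epithelium on the medial side, was called by 10 markers such as Epyc and Tecta. Of 30634 cells, 1777 were HCs, 2080 SCs, 17366 KO cells and 8711 other cells, and 700 with markers of more than 1 class were set aside. Summed HC markers reached 14067 to 35762 CPM (UMIs of the gene per 1000000 of the cell) in HCs and 493.4 to 1042 CPM in SCs. Summed SC markers reached 2245 to 9340 CPM in SCs and 267 to 806 CPM in HCs. The labels call the whole material sensory epithelium, but over all ages together the KO class was the largest, although at E14 the 3363 other cells outnumbered the 1729 KO cells, and the other cells took in interdental, lateral and roof cells and, at P7, glia and mesenchyme.

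The median cell held 2478 to 5647.5 UMIs (unique molecular identifiers, 1 per captured molecule), depending on the library. At E14 only 17 and 29 cells per library were HCs, the thinnest class of the series. Of the SCs and possible SCs at or above the marker threshold, 20.1% lay within 0.1 of it, against 0.704% for HCs, so the edge of the SC class is soft. It was softer at E14, where 29 of 60 and 26 of 55 such cells lay there. At P1 these were 59 of 472, 31 of 206, 28 of 243 and 139 of 711. Results that use SCs at E14 rest on this less certain class. In HCs of E16 replicate 2 the blood cell markers summed to 1814 CPM, against 43.8 and 50.02 CPM in the other E16 libraries, and their part in the results was not tested. Blood markers were also read in the other classes, but only over the E16 libraries together. Over all E16 cells their mean log value was 0.0436 in HCs, 0.0369 in SCs, 0.0335 in KO cells and 0.0440 in other cells. These pooled log values do not show how the classes of replicate 2 compared. SCs and KO cells were also kept only below the blood marker threshold, whereas HCs were not. The summed KO markers in HCs reached 3465 to 5209 CPM at P7, of which Calb1, a calcium buffer also made by HCs, gave 2967 to 4719 CPM. Libraries of the same age shared 9 to 62 cell barcodes.

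Serine is made from a glycolytic intermediate in 3 steps. Phgdh, phosphoglycerate dehydrogenase, takes the first, Psat1, phosphoserine aminotransferase, the second, and Psph, phosphoserine phosphatase, the last. Shmt2 then passes a carbon from serine to folate inside mitochondria and leaves glycine, and Mthfd2 carries that folate carbon onward to formate, which purine synthesis uses. Ppat commits phosphoribosyl pyrophosphate to the purine ring, and the multifunctional enzymes Gart and Paics take several of the steps after it. Asparagine synthetase, Asns, and the serine enzymes are known targets of ATF4, whose protein is set largely by translation, so the level of Atf4 RNA is not a measure of its activity.

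The starts of the genes were read from RefSeq (GRCm38.p6), in windows running from 250 bases before to 50 bases after each start. All 8 genes were matched. The motif TGATGNAA, read on both strands, is the core of the amino acid response element that ATF4 binds, and was in the window of 1 of the 8 genes, Asns, and in 3.97% of 32851 windows of all genes. The E box CACGTG was in the window of 1 gene, Paics, and in 7.15% of all windows. CCAAT, the box bound by NF-Y, was in windows of 5 of the 8 genes (Atf4, Gart, Paics, Phgdh and Psat1) and in 37.4% of all windows. The counts of the 8 are per gene, with a match in any of its windows. The shares are per window, with 32851 windows for 27025 gene symbols, so counts and shares are not directly comparable. A match is a description of the letters and not of binding. The lines below show the Asns stretch, at chr6:7693215-7693242 on the minus strand, because it holds the TGATGNAA match. The match begins at position -23 from the RefSeq start, but within an exon of the GENCODE annotation, where Asns starts further upstream. Psat1 has 2 annotated starts, and the window of 1 of them held none of the 3 motifs. Stretches just upstream of its other start (chr19:15925060-15925159, minus strand) and of the Mthfd2 start (chr6:83317607-83317706, minus strand) are also shown. They were chosen because these genes had the largest HC minus SC differences of their lists at P1. Each is written 5′ to 3′ along the gene's strand, with matches in capitals, TGATGNAA for Asns and CCAAT, or ATTGG where it reads on the other strand, for Psat1 and Mthfd2.
Asns: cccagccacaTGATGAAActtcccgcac
Psat1: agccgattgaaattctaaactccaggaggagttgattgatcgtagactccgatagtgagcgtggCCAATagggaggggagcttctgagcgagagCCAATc
Mthfd2: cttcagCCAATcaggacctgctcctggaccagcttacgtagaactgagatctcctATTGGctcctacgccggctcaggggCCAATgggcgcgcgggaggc

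Levels below are means over the cells of a class in 1 library, in CPM. Differences are on the scale of log2(CPM + 10) with their standard error, from limma across 9236 genes with Benjamini-Hochberg adjustment, and called at an adjusted p under 0.05. The added 10 CPM makes the differences of low genes smaller than their ratios. The comparisons ask in which cell classes, and at which ages, the synthesis genes were raised, and whether inner and outer HCs differed.

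**Figure D1:**
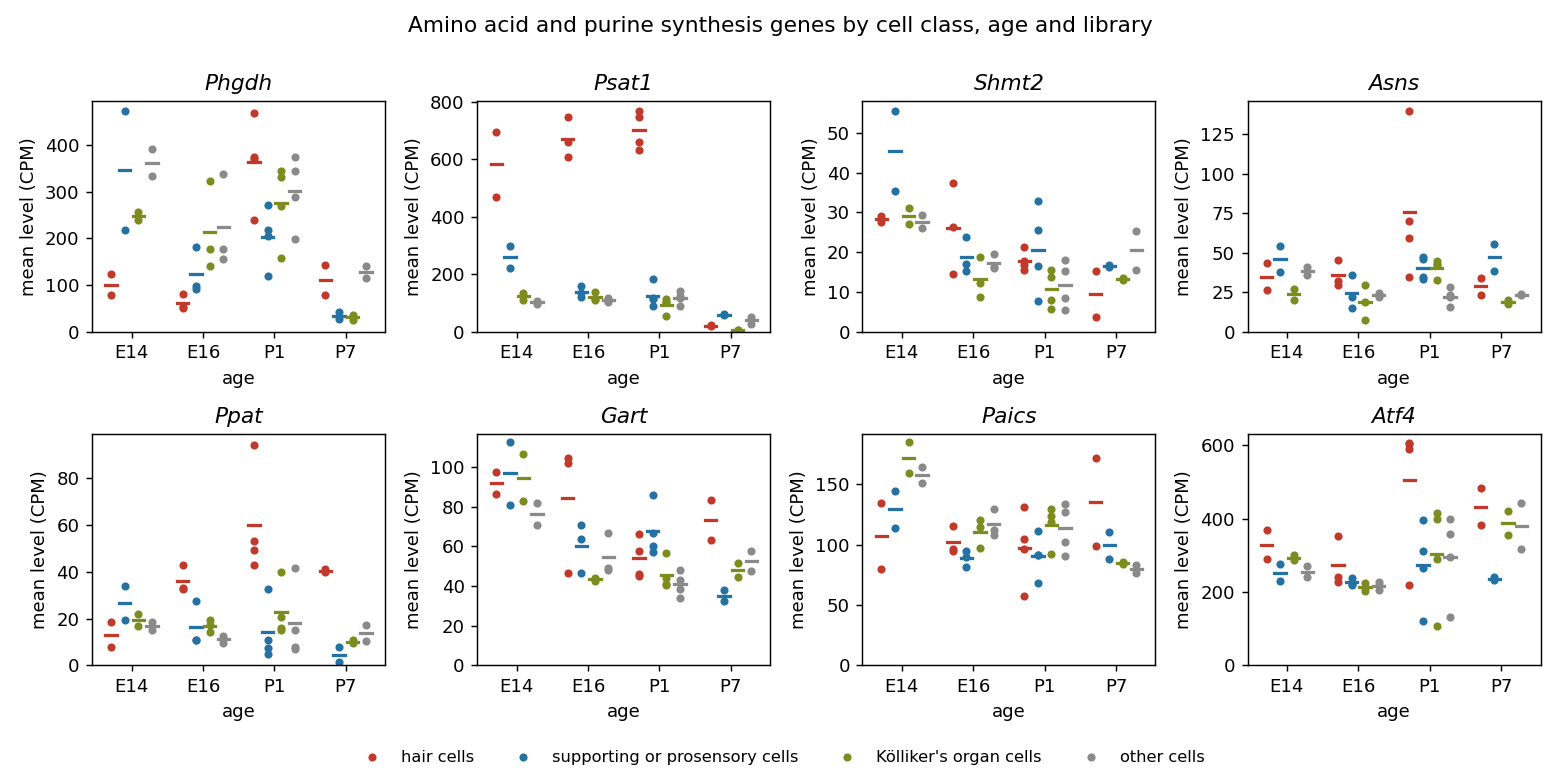
Mean level in CPM (vertical axis, linear, from 0) of each of the 8 genes by age (horizontal axis), with 1 point per library and the cell classes in different colours. Psat1 in HCs stands at 470 to 766 CPM in every library from E14 to P1 and at 20.5 and 22.1 CPM in both P7 libraries.

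Psat1 was far higher in HCs than in SCs and KO cells from E14 to P1. In HCs its level was 696 and 470 CPM at E14, 660.2, 608 and 747 CPM at E16, and 631, 661, 766 and 746 CPM at P1. In SCs it was 297 and 223 CPM at E14, 120.2, 134 and 158 CPM at E16, and 90.1, 118, 114 and 183 CPM at P1. No HC library overlapped an SC library at any of these ages. In KO cells the level was 53.2 to 139 CPM and in other cells 90.5 to 142 CPM over the same 9 libraries. The HC level was 2.24 times the SC level at E14, 4.89 times at E16 and 5.56 times at P1. The differences were 1.12 ± 0.21 at E14 (limma adjusted p = 6.8e-05), 2.21 ± 0.17 at E16 (adjusted p = 3.61e-14) and 2.42 ± 0.15 at P1 (adjusted p = 5.84e-18). Against KO cells they were 2.13 ± 0.21, 2.38 ± 0.17 and 2.82 ± 0.15. The E14 difference from SCs was not called when libraries were weighted by the spread of their class and age (adjusted p = 0.068). The HC level was not called changed from E14 to E16 or from E16 to P1, while the SC level changed by -0.87 ± 0.25 from E14 to E16 (adjusted p = 0.0181). That call was lost in 5 of 17 alternatives, which were the looser gate, the weights by class and age (adjusted p = 0.17), and leaving out E14 replicate 1 (-0.67, adjusted p = 0.19) or E16 replicate 1 or 2.

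At P7 Psat1 was below its P1 level in HCs, SCs and KO cells. It stood at 22.1 and 20.5 CPM in HCs, 58.3 and 60.4 CPM in SCs, 5.7 and 5.5 CPM in KO cells and 27.9 and 53.0 CPM in other cells, among which the glial cells held 132 and 158 CPM. The order had turned, with SCs above HCs and no overlap, and the HC minus SC difference was -1.15 ± 0.21 (limma adjusted p = 1.51e-05). HCs stayed above KO cells, by 1.00 ± 0.21 (adjusted p = 9.63e-05), though not past the threshold with 50 CPM added in place of 10 (0.36, adjusted p = 0.055) or on the mean of the deposited log values (0.12, adjusted p = 0.47). Inner HCs held 51.2 and 52.8 CPM and outer HCs 3.3 and 4.4 CPM, the latter from 1 and 3 UMIs, too few to set them above or below KO cells. From P1 to P7 Psat1 changed by -4.50 ± 0.23 in HCs (adjusted p = 5.66e-19), the P7 level being 0.0304 times the P1 level. The change was -0.93 ± 0.23 in SCs (adjusted p = 0.00372) and -2.69 ± 0.23 in KO cells (adjusted p = 7.33e-12). The drop in HCs exceeded that in SCs by 3.57 ± 0.26 (adjusted p = 2.55e-14). The mean of the deposited log values, which weights cells differently, gave an HC minus SC difference of -0.24 at P7 that was not called (adjusted p = 0.11).

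Cells were also thinned to 1500 UMIs each, so that depth did not enter the share of cells with a Psat1 molecule. At P1 that share was 59.1 to 67.4% of HCs, 11.7 to 23.6% of SCs and 7.09 to 15.2% of KO cells. At P7 it was 2.90 and 2.95% of HCs, 7.20 and 8.08% of SCs and 0.81% of KO cells in both libraries. Without thinning, 93.9 to 98.6% of HCs at P1 and 8.41 and 12.4% of HCs at P7 had a molecule. Within libraries of all ages Psat1 in KO cells stood at 8.43 to 29.0% of its HC level.

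Psph, the next enzyme of the route, showed a similar order with an earlier peak. In HCs its mean was 1182 CPM at E14, 1698 CPM at E16, 710 CPM at P1 and 64.6 CPM at P7, and in SCs it was 221, 106, 137 and 70.1 CPM. HCs exceeded SCs by 2.36 ± 0.20 at E14, 3.86 ± 0.16 at E16 and 2.23 ± 0.14 at P1 (limma adjusted p = 2.4e-12, 8.22e-23 and 1.2e-17), and at P7 the difference was -0.11 ± 0.20 and not called (adjusted p = 0.688). In HCs Psph fell by 1.29 ± 0.19 from E16 to P1 (adjusted p = 2.34e-06) and by 3.21 ± 0.22 from P1 to P7 (adjusted p = 3.31e-15).

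Phgdh, the first enzyme of the route, was lower in HCs than in SCs before birth and higher after it. In HCs it was 78.6 and 123 CPM at E14, 51.2, 53.2 and 80.2 CPM at E16, 239.6, 468, 376 and 371 CPM at P1, and 143 and 78.1 CPM at P7. In SCs it was 473 and 218 CPM at E14, 91.6, 98.5 and 181 CPM at E16, 119, 218, 206 and 271 CPM at P1, and 26.8 and 42.2 CPM at P7. The classes did not overlap at E14, E16 and P7, and at P1 they overlapped across libraries although HCs were higher within each of the 4. The HC minus SC difference was -1.61 ± 0.29 at E14 (limma adjusted p = 2.79e-05), -0.87 ± 0.23 at E16 (adjusted p = 0.00292), 0.82 ± 0.20 at P1 (adjusted p = 0.000579) and 1.41 ± 0.29 at P7 (adjusted p = 6.81e-05). The change of this difference from E16 to P1 was 1.69 ± 0.31 (adjusted p = 8.95e-05). The E14 SC libraries lay far apart, and without E14 replicate 1 the difference was -0.77 and not called (adjusted p = 0.1). The E16 difference was not called on the mean of the deposited log values (-0.26, adjusted p = 0.25). Without P7 replicate 4 the P7 difference was 0.75 and not called (adjusted p = 0.12).

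Within HCs Phgdh rose by 2.37 ± 0.28 from E16 to P1 (limma adjusted p = 1.48e-08), a ratio of 5.91, and changed by -1.65 ± 0.32 from P1 to P7 (adjusted p = 9.41e-05). No E16 HC library overlapped a P1 one. SCs went from E14 to E16 by -1.37 ± 0.33 (adjusted p = 0.00544), which was not called without E14 replicate 1 (-0.83, adjusted p = 0.2) or with the weights by class and age (adjusted p = 0.094). From P1 to P7 Phgdh changed by -2.23 ± 0.32 in SCs and by -2.76 ± 0.32 in KO cells (adjusted p = 9.95e-07 and 6.36e-09). In KO cells the level was 142 to 344 CPM before P7 and 25.6 and 35.9 CPM at P7. Against KO cells HCs were lower at E14 by -1.25 ± 0.29 and at E16 by -1.59 ± 0.23, not called apart at P1, and higher at P7 by 1.52 ± 0.29. The E14 call was lost with the weights by class and age (adjusted p = 0.12). Psat1 and Phgdh, consecutive steps of the same route, stood on opposite sides of the SC level at E14, E16 and P7.

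**Figure D2:**
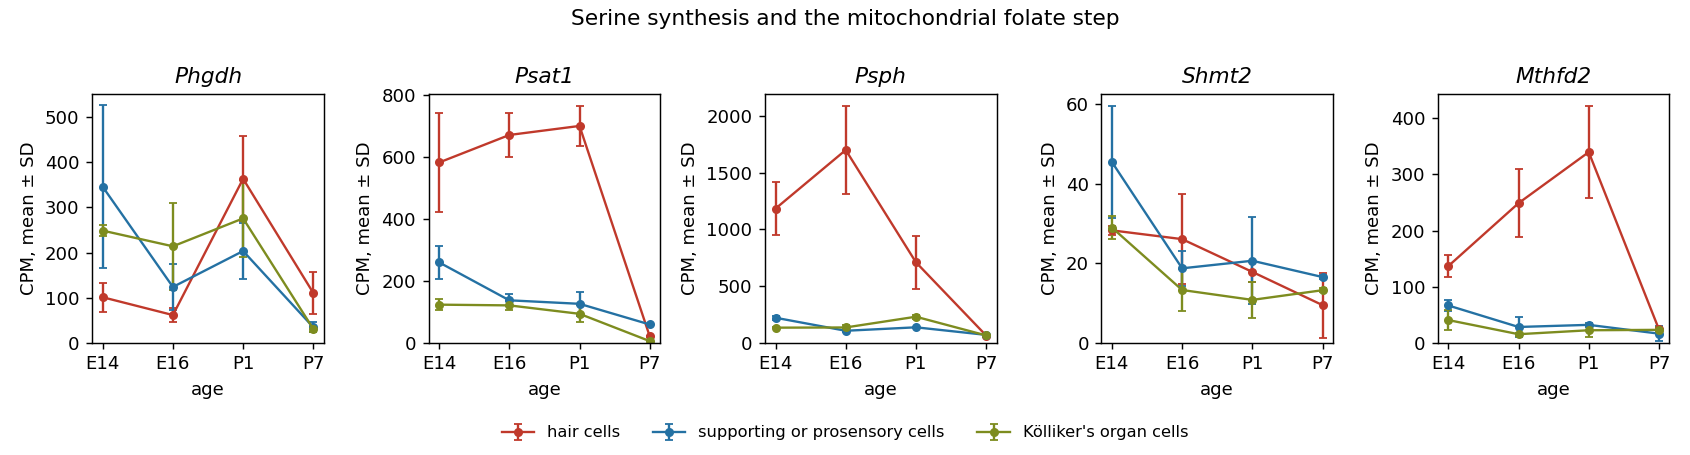
Mean level ± SD over libraries in CPM (vertical axis, linear, from 0) of the genes of serine synthesis and of the mitochondrial folate step by age (horizontal axis), with a line per cell class. Psph in HCs peaks at E16 with 1698 CPM, Phgdh in HCs at P1 with 364 CPM, and Psat1 and Mthfd2 in HCs drop between P1 and P7.

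Shmt2, the mitochondrial enzyme after Psph, was low in all classes and showed no HC difference of that size. In HCs it was 29.1 and 27.5 CPM at E14, 14.6, 26.3 and 37.3 CPM at E16, 17.8, 16.7, 21.3 and 15.6 CPM at P1, and 3.7 and 15.3 CPM at P7. The first E14 value and the first P7 value rest on 3 UMIs each. SC levels ran from 7.7 to 55.5 CPM, and HCs and SCs were not called apart at any age. HCs exceeded KO cells at E16 by 0.60 ± 0.21 (limma adjusted p = 0.0186) and at P1 by 0.44 ± 0.18 (adjusted p = 0.0307), and these calls were lost in 4 of 15 and 6 of 16 alternatives, among them leaving genes unfiltered and the cases where either of 2 libraries was left out (E16 replicate 2 or 3, adjusted p = 0.12 and 0.11, and P1 replicate 1 or 4, adjusted p = 0.15 and 0.14). In SCs Shmt2 changed by -0.94 ± 0.30 from E14 to E16 (adjusted p = 0.0324), a call lost in 10 of 17 alternatives, among them the weights by class and age, both other gates, summed UMIs, and leaving out E14 replicate 2 (-0.67, adjusted p = 0.27) or E16 replicate 1 or 2.

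Mthfd2, the dehydrogenase and cyclohydrolase that takes the next mitochondrial step, had the largest HC difference among the folate genes at P1. Its mean in HCs was 137 CPM at E14, 248.9 CPM at E16, 339.8 CPM at P1 and 24.0 CPM at P7, against 66.6, 28.3, 32.0 and 16.4 CPM in SCs. HCs exceeded SCs by 2.83 ± 0.25 at E16 and 3.03 ± 0.21 at P1 (limma adjusted p = 1.09e-12 and 4.78e-16), and in HCs Mthfd2 fell by 3.33 ± 0.34 from P1 to P7 (adjusted p = 1.92e-10). Mthfd2l, its paralog, was lower in HCs than in SCs at P1, by -1.80 ± 0.16.

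Asns was higher in HCs than in SCs at P1 in the fit, but that difference rested on 1 library. In HCs it was 26.2 and 43.6 CPM at E14, 29.8, 31.8 and 45.3 CPM at E16, 70.0, 59.2, 34.8 and 139 CPM at P1, and 34.1 and 23.4 CPM at P7. The lowest E14 value is 2 UMIs in 17 cells. In SCs it was 47.2, 33.5, 34.8 and 45.8 CPM at P1 and 55.8 and 38.4 CPM at P7. P1 replicate 4 was far above the other HC libraries, and in P1 replicate 3 the HC and SC levels were both 34.8 CPM. The P1 difference was 0.64 ± 0.21 (limma adjusted p = 0.00739), and without P1 replicate 4 it was 0.38 and not called (adjusted p = 0.16), nor was it called without the deepest 10% of cells (0.51, adjusted p = 0.064). The rise in HCs from E16 to P1, 0.79 ± 0.29 (adjusted p = 0.0397), was lost in 11 of 19 alternatives. They include 1 CPM added in place of 10, the stricter gate, the weights by class and age, leaving out cycling or the deepest cells, and leaving out any of 5 libraries (E16 replicate 1 or 2, or P1 replicate 1, 2 or 4, adjusted p = 0.06 to 0.2). From P1 to P7 Asns changed by -1.02 ± 0.33 in HCs (adjusted p = 0.0174), which was not called without P1 replicate 4 (adjusted p = 0.078), either P7 library or the deepest 10% of cells. At P7 both SC libraries were above both HC libraries, and the change of the HC minus SC difference from P1 to P7 was -1.20 ± 0.36 (adjusted p = 0.0124), not called without P1 replicate 4 (adjusted p = 0.062), P7 replicate 4 (0.094), P7 replicate 5 (0.087) or the deepest 10% of cells.

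Against KO cells Asns in HCs was higher at E16 by 0.73 ± 0.24 (limma adjusted p = 0.0138) and at P1 by 0.64 ± 0.21 (adjusted p = 0.00768). The E16 call was lost without E16 replicate 1 (adjusted p = 0.19), with 50 CPM added and on the mean of the deposited log values, and the P1 call without P1 replicate 4 (adjusted p = 0.2) and without the deepest 10% of cells. In KO cells Asns was 7.5, 19.0 and 29.7 CPM at E16 and 32.4 to 44.7 CPM at P1, a rise of 0.88 ± 0.29 (adjusted p = 0.0401) that was lost in 13 of 19 alternatives. They include both other gates, 50 CPM added, no filter, the mean of the deposited log values, leaving out cycling or the deepest cells, and leaving out E16 replicate 1 (0.56, adjusted p = 0.47), E16 replicate 2 or P1 replicate 1, 2 or 3. HCs and SCs were not called apart for Asns at E14, E16 or P7 (-0.56 at P7, limma adjusted p = 0.11).

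Ppat, the amidotransferase that commits to purine synthesis, was low, and from E16 on it was higher in HCs than in SCs. In HCs it was 18.5 and 7.7 CPM at E14, which is 1 UMI in each library, 33.2, 43.0 and 32.5 CPM at E16, 43.1, 49.5, 53.2 and 94.4 CPM at P1, and 41.3 and 39.8 CPM at P7. In SCs it was 34.1 and 19.5 CPM at E14, 27.6, 10.7 and 10.8 CPM at E16, 4.8, 7.6, 11 and 32.8 CPM at P1, and 1.2 and 7.7 CPM at P7. From E16 on, every HC library stood above every SC library of its age. P1 replicate 4 was the highest P1 library in each of the 4 classes. The HC minus SC difference was 0.86 ± 0.23 at E16 (limma adjusted p = 0.00306), 1.62 ± 0.20 at P1 (adjusted p = 4.42e-09) and 1.84 ± 0.29 at P7 (adjusted p = 7.3e-07). The E16 call was lost without E16 replicate 2 (0.61, adjusted p = 0.11) or 3 and, narrowly, with the library as a block (adjusted p = 0.051). HCs also exceeded KO cells, by 0.78 ± 0.23, 1.09 ± 0.20 and 1.33 ± 0.29 at these ages, the E16 call being lost without E16 replicate 3 (0.77, adjusted p = 0.055). Within HCs, the changes from E16 to P1 (0.56, adjusted p = 0.15) and from P1 to P7 (-0.42, adjusted p = 0.39) were not called.

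The P7 ratio of Ppat between HCs and SCs rests on few molecules. SCs held 6 UMIs of 1242395 and HCs 61 of 1601044, a ratio of 7.89 with an exact 95% counting interval from 3.42 to 22.3. The rise in HCs from E14 to E16, 1.03 ± 0.34 (limma adjusted p = 0.0176), sets 73 UMIs against 2, a ratio of 4.76 with an interval from 1.27 to 40.02. That call was lost in 5 of 17 alternatives, which were the mean of the deposited log values, the weights by class and age (adjusted p = 0.34), leaving out cycling cells (0.78, adjusted p = 0.098), and leaving out E14 replicate 2 (0.69, adjusted p = 0.22) or E16 replicate 2 (0.93). Such intervals cover counting error alone.

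Gart, which takes 3 steps of the purine route, differed between HCs and SCs at P7. In HCs it was 97.5 and 86.6 CPM at E14, 105, 46.5 and 102 CPM at E16, 46.3, 45.3, 57.7 and 66.4 CPM at P1, and 83.4 and 63.3 CPM at P7. In SCs it was 57.4, 67.0, 60.2 and 85.9 CPM at P1 and 32.3 and 37.8 CPM at P7. SCs were above HCs in each of the 4 P1 libraries and below them in both P7 libraries, without overlap at P7. The P7 difference was 0.88 ± 0.22 (limma adjusted p = 0.000987), and 0.62 and not called without P7 replicate 4 (adjusted p = 0.13). The change of the difference from P1 to P7 was 1.16 ± 0.27 (adjusted p = 0.00142), not called without P7 replicate 4 (adjusted p = 0.086). In SCs Gart changed by -0.77 ± 0.25 from P1 to P7 (adjusted p = 0.0244), a call lost in 6 of 17 alternatives, which were centring, the stricter gate, and leaving out either P7 library or P1 replicate 2 or 4.

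Against KO cells Gart in HCs was higher at E16 by 0.75 ± 0.18 (limma adjusted p = 0.000848). At P7 it was higher by 0.51 ± 0.22 (adjusted p = 0.0494), a call lost in 9 of 14 alternatives, among them those without P7 replicate 4 (0.25, adjusted p = 0.58), without P7 replicate 5 (0.77, adjusted p = 0.053) and with 1 CPM added in place of 10 (adjusted p = 0.053). KO cells fell from 107 and 82.8 CPM at E14 to 42.7 to 44.1 CPM at E16, by -0.96 ± 0.26 (adjusted p = 0.0172), which was lost without either E14 library, without cycling cells (adjusted p = 0.068), with the stricter gate and with centring. Cells with a UMI in at least 2 genes of a cell cycle list were taken as cycling. This held for 41.1 to 44.4% of KO cells at E14 and 6.40 to 8.05% at E16. The same rule was met by 20.7 to 35.3% of HCs at E14 and 5.90 to 12.7% at P1. It counts detected genes without correction for depth, so these shares do not measure division. In P1 replicates 1 to 4, HCs had medians of 9393, 7409, 8256 and 5288 UMIs. Their shares were 12.7, 11.4, 8.13 and 5.90%. The cause of the fall of Gart in KO cells was not tested.

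Paics, which takes steps of the purine ring after Ppat and Gart, was 79.5 and 135 CPM at E14, 96.1, 116 and 94.98 CPM at E16, 132, 96.4, 105 and 57.1 CPM at P1 and 172 and 98.6 CPM at P7 in HCs, and 68.6 to 145 CPM in SCs over the 11 libraries. HCs and SCs overlapped at every age, and no difference was called. The E14 difference of -0.28 was called in 4 of 14 alternatives, which were summed UMIs, the mean of the deposited log values, leaving out cycling cells (-0.91, limma adjusted p = 0.0133) and leaving out E14 replicate 2 (-0.79), and it stood at 0.22 without E14 replicate 1. Against KO cells HCs were lower at E14 by -0.68 ± 0.21 (limma adjusted p = 0.0104), lost in 6 of 14 alternatives, which were centring, both other gates, the weights by class and age (adjusted p = 0.25), the library as a block (adjusted p = 0.19) and leaving out E14 replicate 1 (adjusted p = 0.26). At P7 they were higher by 0.57 ± 0.21 (adjusted p = 0.0194), lost without P7 replicate 4 (0.19, adjusted p = 0.64), without cycling cells, without a filter and with the stricter gate. Ppat and Paics lie head to head on opposite strands of chromosome 5, and their annotated ends overlap by 272 bases at chr5:76951307-76951578, far from the 3′ ends that this assay reads.

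Atf4 RNA was detected in every class at every age. In HCs it was 368 and 290.2 CPM at E14, 241, 226 and 353 CPM at E16, 218, 590, 604 and 606 CPM at P1, and 483 and 382 CPM at P7. In SCs it was 228 and 276 CPM at E14, 239, 220.1 and 221 CPM at E16, 120.2, 312, 396 and 264 CPM at P1, and 241 and 231 CPM at P7. P1 replicate 1 was the lowest P1 library in all 4 classes, and within each P1 library HCs were above SCs. The HC minus SC difference was 0.87 ± 0.19 at P1 (limma adjusted p = 0.000119) and 0.84 ± 0.26 at P7 (adjusted p = 0.00755). The P7 call was lost without P7 replicate 4 (0.70, adjusted p = 0.15) and without a filter. Against KO cells HCs were higher at P1 by 0.77 ± 0.19 and not called apart at the other ages. The rise in HCs from E16 to P1 was 0.78 ± 0.26 (adjusted p = 0.024), a call lost without a filter, with the weights by class and age, and when any of 5 libraries was left out (E16 replicate 1 or 2, or P1 replicate 2, 3 or 4, adjusted p = 0.085 to 0.14).

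**Figure D3:**
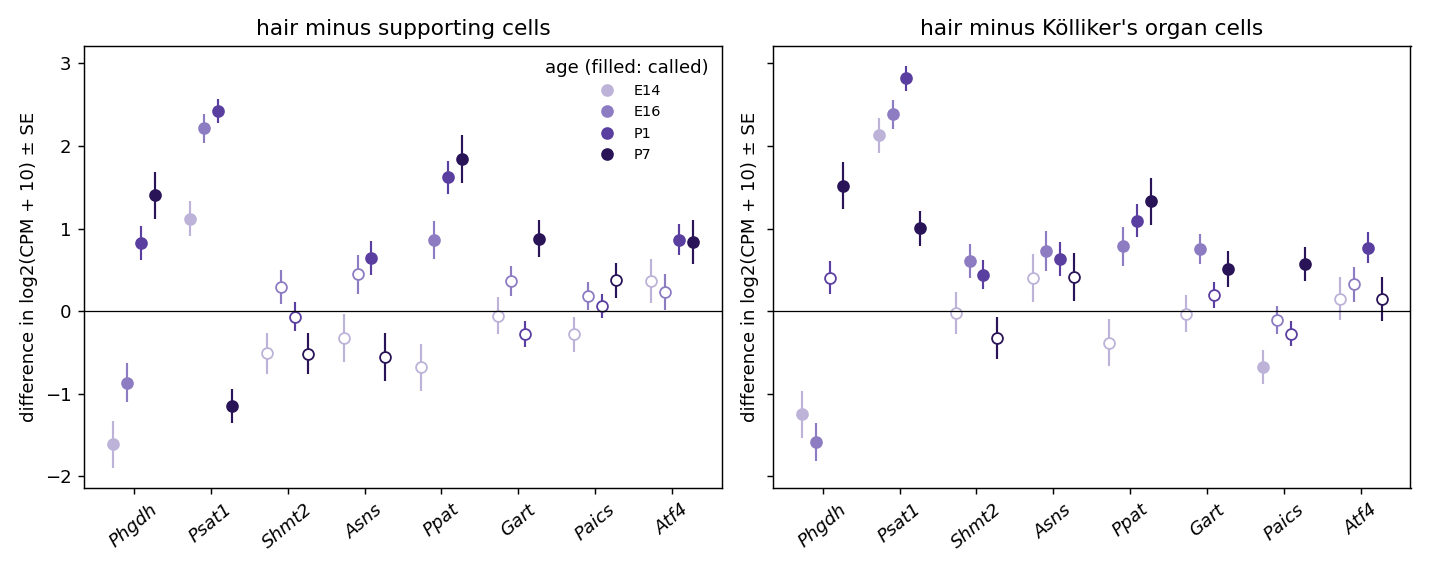
Difference of HCs from SCs and of HCs from KO cells, in log2(CPM + 10) with its standard error (vertical axis), for each of the 8 genes (horizontal axis) at each age, marked by colour. Psat1 lies above 0 from E14 to P1 in both panels, and at P7 below 0 against SCs (-1.15) and above 0 against KO cells (1.00).

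Counted over the 8 genes, 2 differed between HCs and SCs at E14, 1 in each direction, where 11.8% of all 9236 genes were higher in HCs and 19.6% lower. The E16 comparison had 2 higher and 1 lower, beside 17.2% and 18.3% of all genes. At P1 the 5 called genes, Psat1, Ppat, Atf4, Phgdh and Asns, were all higher, beside 27.3% of all genes higher and 29% lower. At P7 4 were higher and 1 lower, beside 26.4% and 24.6%. The median difference of the 8 genes ran through -0.30, 0.33, 0.73 and 0.60 over the ages in order, beside medians over all genes of -0.10, -0.01, -0.01 and 0.04.

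Against KO cells, 1 gene was higher in HCs and 2 lower at E14 (11.2% and 21.4% of all genes), 5 were higher and 1 lower at E16 (18.5% and 17.7%), 5 higher and 0 lower at P1 (32.4% and 26.7%), and 5 higher and 0 lower at P7 (28.5% and 25.5%). These comparisons use the same HC libraries as those against SCs. In HCs from E14 to E16, 1 of the 8 rose and 0 fell (15% and 14.1% of all genes). From E16 to P1, 3 rose and 0 fell (13.5% and 10%), and from P1 to P7, 0 rose and 3 fell (9.86% and 13.5%). In SCs 0 rose and 3 fell from E14 to E16 (4.96% and 6.86%), and 0 rose and 3 fell from P1 to P7 (6.2% and 10.6%). From E16 to P1 limma called 0 in SCs (5.15% of all genes rose and 3.87% fell), where 2 had an unadjusted p under 0.05. In KO cells 0 rose and 1 fell from E14 to E16 (2.63% and 3.26%), 1 rose and 0 fell from E16 to P1 (4.77% and 4.98%), and 0 rose and 2 fell from P1 to P7 (8.25% and 9.18%). The HC minus SC difference itself went up for 1 gene and down for 0 between E16 and P1 (8.92% and 9.48% of all genes), and up for 1 and down for 2 between P1 and P7 (11.4% and 10.4%).

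HCs were next divided into inner HCs, which carry most of the sound signal to the nerve, and outer HCs, which amplify it, by markers such as Fgf8 and Slc17a8 or Insm1 and Ikzf2. Each P1 library gave 30 to 47 inner and 86 to 252 outer HCs, and the P7 libraries 43 and 41 inner and 49 and 73 outer HCs. HCs that met neither marker rule were left out. Of 962 HCs at P1, 158 were inner and 563 outer, and of 228 at P7, 84 were inner and 122 outer. The mix thus differed between the ages, so changes of the whole HC class from P1 to P7 can combine mix and level. Their parts were not tested. The 2 kinds were compared within libraries, by limma over 8827 genes at P1 and 8746 at P7, with 3 and 1 residual degrees of freedom. At P1 2 of the 8 genes were called, 1 higher and 1 lower in inner HCs (5.13% and 6.77% of all genes), and 3 had an unadjusted p under 0.05. At P7 3 of 7 tested genes were called, 2 higher and 1 lower (5.96% in each direction), Shmt2 falling under the filter on low values.

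Phgdh was higher in inner HCs at both ages. At P1 it was 301, 890, 831 and 480.2 CPM in inner HCs and 238, 349, 290.2 and 388 CPM in outer HCs, and inner HCs were higher in each of the 4 libraries. The difference was 0.86 ± 0.13 (limma adjusted p = 3.76e-07), a ratio of 1.98. At P7 it was 237 and 103 CPM in inner and 76.9 and 65.0 CPM in outer HCs, a difference of 1.05 ± 0.30 (adjusted p = 0.00596), which was not called once profiles were centred on their median difference (1.02, adjusted p = 0.058).

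Psat1 took opposite directions at the 2 ages. At P1 inner HCs held 512, 519.8, 497 and 628 CPM and outer HCs 701, 707, 820.2 and 763 CPM, lower in inner HCs in each of the 4 libraries, by -0.47 ± 0.09 (limma adjusted p = 0.000146). At P7 inner HCs held 51.2 and 52.8 CPM and outer HCs 3.3 and 4.4 CPM, a difference of 2.16 ± 0.48 (adjusted p = 0.000158). The outer values at P7 are 1 and 3 UMIs. Summed over both libraries, 31 UMIs of 623304 in inner HCs stood against 4 of 841321 in outer HCs, a ratio of 10.5 with an exact 95% counting interval from 3.70 to 40.8. At 1500 UMIs per cell, 6.65 and 7.55% of inner and 0.49 and 0.66% of outer HCs had a Psat1 molecule at P7, beside 0.81% of KO cells.

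Paics was lower in inner HCs at P7, at 86.3 and 58.8 CPM against 229 and 125 CPM in outer HCs, by -1.14 ± 0.29 (limma adjusted p = 0.00168). At P1 the inner values of 51.8 to 118 CPM overlapped the outer values of 60.5 to 132 CPM, and the difference of -0.24 ± 0.19 was not called (adjusted p = 0.505). Asns, Ppat, Gart and Atf4 were not called between inner and outer HCs at either age. Among them Atf4 came nearest at P1, with -0.28 ± 0.11 (adjusted p = 0.0876).

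**Figure D4:**
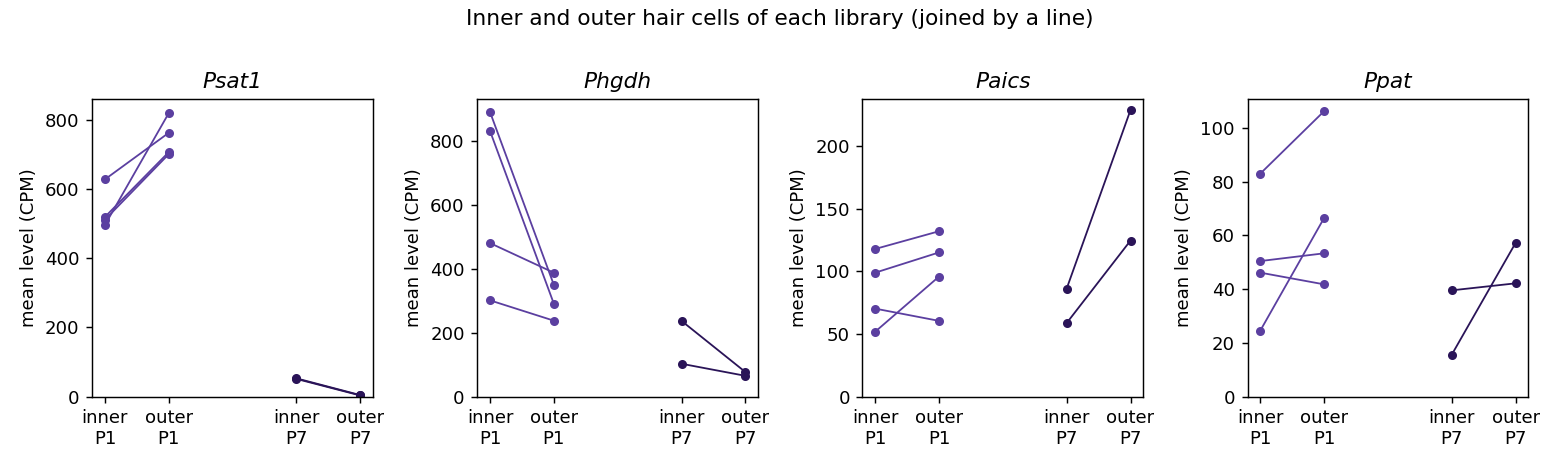
Mean level in CPM (vertical axis, linear, from 0) of Psat1, Phgdh, Paics and Ppat in inner and outer HCs at P1 and P7 (horizontal axis), with the values of a library joined by a line. All 4 P1 lines and both P7 lines of Phgdh fall from inner to outer HCs, and those of Psat1 rise at P1 and fall at P7.

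The genes of these pathways were read from lists of related function. The lists also hold genes already reported above, among them Psat1 and Phgdh, so their counts and medians partly repeat those results. Between HCs and SCs at P1, 27.3% of all genes tested were called higher and 29% lower, and the counts of the lists are to be read against those shares. At P1 all 4 called genes of the serine and glycine list were Psat1, Psph, Phgdh (higher in HCs) and Gcsh, of the glycine cleavage system (lower, -0.48 ± 0.12), of 6 tested. HCs exceeded SCs for 2 of the 7 folate genes that could be tested, near the share of all genes, and lay below them for 5, with Mthfd2 (3.03) at one end and Mthfd2l (-1.80) at the other. Of 12 tested genes of de novo purine synthesis 3 were higher, near the 27.3% of all genes, and 5 lower, against 29%. The largest rise was that of Impdh1, which starts guanine nucleotide synthesis (1.92 ± 0.25), and the largest fall that of Prpsap1, a partner of the enzyme that makes phosphoribosyl pyrophosphate (-0.84 ± 0.14). Adsl, which acts after Paics and again later, was higher (0.57 ± 0.23) and Atic, which closes the ring, lower (-0.61 ± 0.20), so that the consecutive purine enzymes did not move as 1 block. Pfas, which acts between steps taken by Gart, was at 3.5 CPM in HCs at P1 and under the filter. Of 4 tested genes of purine salvage, which recycles bases, 0 were higher and 3 lower in HCs by limma, Aprt most (-1.18 ± 0.15).

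Of 13 tested genes around asparagine, glutamine, glutamate, proline and aspartate, 5 were higher and 3 lower in HCs at P1, beside 27.3% and 29% of all genes. Glul, which makes glutamine and is known from glia and SCs, was the lowest (-3.50 ± 0.18). Of 5 cysteine and branched chain genes tested by limma 0 were called at P1, and 2 had an unadjusted p under 0.05. Of 8 amino acid transporters 2 were higher and 3 lower, with Slc38a1, a neutral amino acid carrier, at 1.75 ± 0.15 and Slc1a3, a glutamate carrier of glia and SCs, at -3.02 ± 0.19. Of 15 genes of the integrated stress response, the signalling that raises ATF4, 5 were higher and 3 lower, beside 27.3% and 29% of all genes. Ddit3, which encodes CHOP, was higher (1.90 ± 0.19) and had risen by 2.04 ± 0.26 in HCs from E16 to P1 (limma adjusted p = 1.06e-07). Nupr1 was lower (-3.12 ± 0.23), but it was also a marker used to recognise lateral cells.

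Of the 20 cytosolic aminoacyl-tRNA synthetases, which load amino acids on tRNA, 10 were higher and 2 lower in HCs at P1, beside 27.3% and 29% of all genes. Cars, for cysteine, rose most (1.53 ± 0.20) and Dars, for aspartate, was lowest (-0.76 ± 0.16). At E14 3 of the 20 were higher and 0 lower (11.8% and 19.6% of all genes), at E16 6 and 2 (17.2% and 18.3%), and at P7 6 and 2 (26.4% and 24.6%), the P7 count of higher genes being near the share of all genes. The medians of the lists at P1 ran from -0.59 for purine salvage and -0.58 for folate genes to 0.38 for the synthetases and 0.39 for serine and glycine, beside -0.01 for all genes. From P1 to P7 in HCs, where 13.5% of all genes fell and 9.86% rose, 3 of 6 serine and glycine genes fell (Psat1, Psph and Phgdh). The falls of these genes were already reported above. The 1 of 7 folate genes that fell (Mthfd2) and the 2 of 20 synthetases that rose are near those shares.

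**Figure D5:**
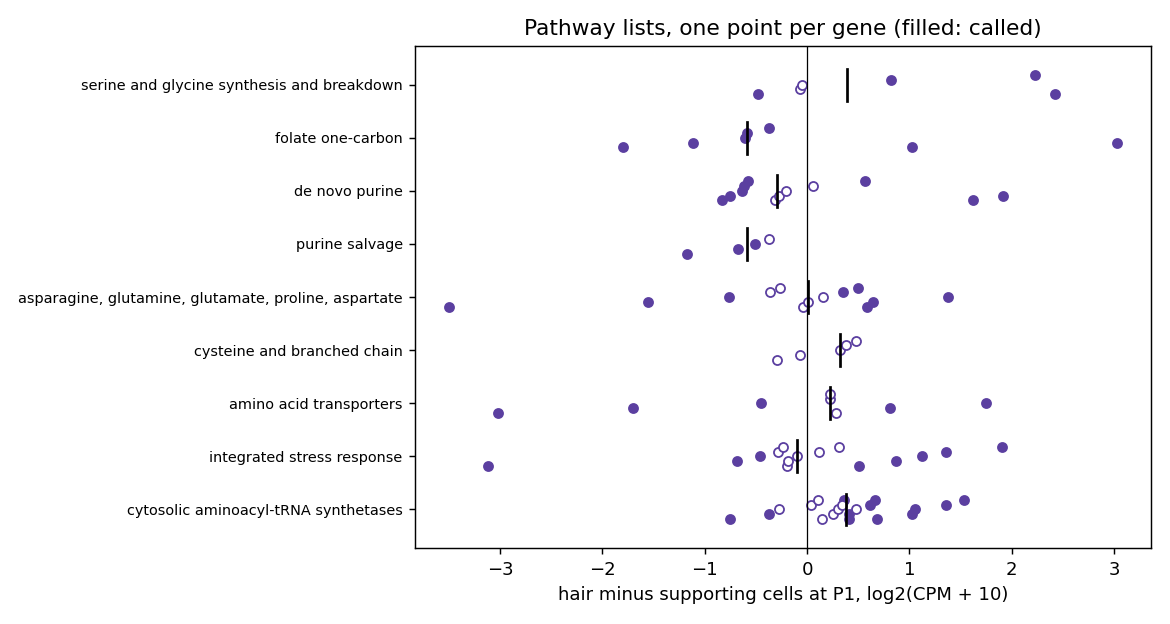
HC minus SC difference at P1 in log2(CPM + 10) (horizontal axis) of each tested gene of the 9 pathway lists (vertical axis), 1 point per gene, filled where limma called it, with a black bar at the median of each list. The serine and glycine points reach 2.42 for Psat1, the folate points run from -1.80 to 3.03, and the called purine salvage points all lie below 0.

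The genes whose profiles were most like each of the 8 were found over 44 profiles of 4 classes in 11 libraries, among 9236 genes. Profiles of 1 library share its depth and cells, and the correlations are descriptions. Psat1 was most like Psph (Pearson r = 0.87), Slc52a3, a riboflavin transporter (0.85), and Hes6, a transcription factor of differentiating HCs (0.84). Ppat was like Pgrmc2 (0.83) and Rufy3 (0.82), and Phgdh like Nop53, Arvcf and Ptov1 (0.75 to 0.79). Atf4 was most like Srf (0.77), the tRNA synthetase gene Cars (0.75) and Snrnp70 (0.75). Asns was most like Tmem70 (0.73) and Tspan13 (0.70), Shmt2 like Apex1, Prpf31 and Cct3 (0.73 to 0.75), Paics like Stoml2, Sugt1 and Mrps10 (0.70 to 0.75), and Gart like Prmt6, Cdc23 and Psme3 (0.73 to 0.75). Among the 8 themselves the highest correlation was that of Ppat and Psat1 (0.48) and the lowest that of Atf4 and Paics (-0.27).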

How the data were processed

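Droplet single-cell libraries of 11 collections were analysed (2, 3, 4 and 2 at E14, E16, P1 and P7). The authors aligned 3′ reads to mm10 with Cell Ranger 2.1.1, removed cells by genes, UMIs, mitochondrial and stress content, and deposited, from Seurat 2.0, the natural log of 1 plus the UMIs of a gene per 10000 of the cell. From these deposited log values CPM and whole UMI counts were worked back (100% whole within 2%). No columns of other samples were present (0). The enzyme that dissociated the cells is given differently by the labels and the methods, so it is not stated here.

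Cells were gated on mean log values of marker lists, hair ≥ 0.7, supporting ≥ 0.4, Kölliker's organ ≥ 1, other lineages ≥ 1; inner hair cells needed 0.6 and outer 0.2. The thresholds were set after the score distributions were seen. No doublet caller was run. Cells passing for hair and supporting, or for supporting and Kölliker's organ, were set aside. Hair cells were set aside for Kölliker's organ markers only from 1.2 on, and never for markers of other lineages. Supporting and Kölliker's organ cells that reached 1 for another lineage were instead counted among the other cells. Mean CPM per class and library (at least 10 cells) was tested as log2(CPM + 10) with limma 3.58.1 in R 4.3.3, 16 class by age groups in 1 fit of 44 profiles, the library as a random block (correlation 0.394) and a mean trend, over 9236 genes with mean CPM of at least 10. Inner and outer hair cells were compared per age with the library as a fixed block. With 1 simulated data set of known changes, 50% of changes of 0.75 and 99% of changes of 1.5 (log2) were recovered between hair and supporting cells at P1, with 1.32% of calls false, and 57%, 91% and 6.33% between inner and outer hair cells at P1. The simulated spread was assumed, 100 genes were changed by each size, and the compared classes were otherwise set equal. Low genes were not changed, and far more genes differed in the real data. These shares therefore need not hold for the real comparisons or for low genes.

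The genes and lists were chosen with earlier results of these data known. All 8 genes were named in every comparison, and of each list the called genes with the largest rise and fall at P1, with Psph, Pfas, Adsl and Atic, and the 3 genes most like each of the 8. Some genes that this rule named are not reported here. Alternatives were an added 1 or 50 CPM, no filter, summed UMIs, the mean deposited log value, centred profiles, a stricter and a looser gate, cycling cells or the 10% of cells with the most UMIs left out, array weights, blocks and each library left out.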

Additional observations from a re-analysis of the deposited data

Results flagged for a closer look

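Each of the 8 genes was checked for a stray library in the 4 classes at P1, the only age with 4 libraries. Chance picks out about 1 in 20 of these 32 groups, and 2 had such a library. Atf4 in HCs of P1 replicate 1 was 217.9 CPM, against 590 to 606 CPM in the other P1 libraries. The same library was lowest for Atf4 in the other 3 classes too, and within it HCs still stood above SCs (120.2 CPM). Psat1 in KO cells of P1 replicate 1 was 53.2 CPM, against 104 to 113 CPM in the other P1 libraries, while Psat1 in HCs of that library was 631 CPM.

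The HC minus SC difference changed between ages for 4 genes by a test of the change itself. That test was made from E16 to P1 and from P1 to P7, but not from E14 to E16. Phgdh moved by 1.69 from E16 to P1, from lower to higher in HCs. From P1 to P7 Psat1 moved by -3.57, Asns by -1.20 and Gart by 1.16. The Asns change rests on P1 replicate 4 and on both P7 libraries, and the Gart change on P7 replicate 4, as their values without those libraries show. P7 has 2 libraries.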

How the results depend on the processing

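Of 167 results for the 8 genes, 60 were called, of which 28 were called under every alternative tried and 32 were lost in at least 1, and of 107 not called 32 were called in at least 1. No result turned its direction while called. The number of the 8 genes called is given here where it moved by over 1.5 times, and the causes of these moves were not tested. On the mean deposited log value it was 4 for HCs against SCs at E14 (2 in the report), 5 for HCs from E16 to P1 (3), 5 and 2 for SCs from E14 to E16 (3) and E16 to P1 (0), 2 and 0 for KO cells from E14 to E16 (1) and E16 to P1 (1), and 3 for the change of the HC minus SC difference from E16 to P1 (1). Without cycling cells it was 4 for HCs against SCs at E14, 3 for HCs against KO cells at P7 (5), and 0 for HCs and KO cells from E14 to E16 and for KO cells from E16 to P1. With array weights it was 1 for HCs against SCs and against KO cells at E14 (3), 0 for HCs from E14 to E16 (1), 1 for HCs from E16 to P1, 0 for SCs and 3 for KO cells from E14 to E16, and 6 for KO cells from P1 to P7 (2). With the stricter gate it was 5 for HCs against SCs at E16 (3), 3 for HCs against KO cells at P7, and 0 for KO cells from E14 to E16 and from E16 to P1. With the looser gate it was 2 for HCs and 1 for SCs from E14 to E16, 0 for KO cells from E16 to P1, and 2 for the change of the difference from E16 to P1. With 50 CPM added it was 3 for HCs against KO cells at P7 and for the change of the difference from E16 to P1, and 0 for KO cells from E16 to P1. Without a filter it was 3 for HCs against KO cells at P7 and 0 for KO cells from E16 to P1. Summed UMIs gave 2 for the change of the difference from E16 to P1, centring gave 0 for KO cells from E14 to E16, and leaving out the deepest 10% of cells gave 0 for KO cells from E16 to P1.

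Leaving out 1 library at a time, the number ran from 1 to 3 for HCs against SCs at E14 (lowest without E14 replicate 1) and 2 to 6 at P7 (lowest without P7 replicate 4), from 3 to 5 and 3 to 4 for HCs against KO cells at P1 (lowest without P1 replicate 4) and P7 (without P7 replicate 4), from 0 to 1 and 1 to 3 for HCs from E14 to E16 (0 without E14 replicate 2 or E16 replicate 2) and E16 to P1 (1 without E16 replicate 1 or P1 replicate 2), from 1 to 3 and 0 to 1 for SCs from E14 to E16 (1 without E14 replicate 1, E16 replicate 1 or 2) and E16 to P1, from 0 to 1 for KO cells from E14 to E16 and from E16 to P1, and from 1 to 3 for the change of the difference from E16 to P1 and from P1 to P7 (1 without P7 replicate 4). No fit without 1 library could be made for inner against outer HCs at P7, where no residual degrees of freedom remain.

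Replicate numbers did not pair libraries of different ages: same-numbered profiles of a class correlated by -0.25 to 0.10. With the replicate number as a block, 2 genes were called in HCs from E14 to E16, 2 in KO cells from E14 to E16 and 0 from E16 to P1. P7 shares only 1 number with P1, so no such fit was made for it. With the library as a fixed block in a fit per age, the counts stayed within 1.5 times. HCs at E14 (17 and 29 cells) and genes under 3 UMIs limit what depth can show.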

Other observations

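Among the cells in no main class, Phgdh and Psat1 were also followed in cells gated by markers of other types. At P7 the glial cells (164 cells, 2 libraries) held 145 CPM of Psat1 (132 and 158) and 341 CPM of Phgdh (281 and 401), and the mesenchymal cells (219 cells) 19.7 CPM and 154 CPM. Asns was at 2.4 CPM in glial cells, from 0 and 2 UMIs in the 2 libraries, and at 32.5 CPM in mesenchymal cells. At P1 Phgdh was 370.1 CPM in cells with Hensen, Claudius or outer sulcus markers, 340.05 CPM in roof cells marked by Oc90 and 310.0 CPM in interdental cells, close to the 364 CPM of HCs, whereas Psat1 was 159, 81.8 and 141 CPM there, against 701 CPM in HCs. These types were compared by values only, with no test.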
